A study of Mus musculus with 55 samples.

Results

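The transcripts of 10 serotonin receptor genes were examined in the mouse ventral dentate gyrus, namely Htr1a, Htr1b, Htr2a, Htr2c, Htr3a, Htr4, Htr5a, Htr5b, Htr6 and Htr7. The genes were taken by symbol, and each symbol matched 1 Ensembl identifier of the 45318 listed. All 10 were among the 18283 genes that passed the low-count filter and were tested. RNA was taken from tissue punches of this region in 54 wild-type male C57/BL6J mice, 1 mouse per sample, as young adults. From weaning the mice lived in standard housing (SH) or in an enriched environment (EE). They were then left unstressed (control) or met an aggressive CD-1 mouse on each day of chronic social defeat stress (CSDS), after which a social interaction ratio above or below 1 classed them as resilient (RES) or susceptible (SUS). The groups held 10 SH control, 7 SH RES, 10 SH SUS, 9 EE control, 9 EE RES and 9 EE SUS mice. These sizes come from the sample labels, and all labelled samples were used, while the paper describes 1 to 7 samples per CSDS group. RES and SUS mice were sorted by behavior and not assigned, and both had been defeated. The comparisons ask which serotonin receptors this tissue expresses and whether their transcripts differ with housing, with defeat or with the outcome of defeat.

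Serotonin reaches the hippocampus along fibers from the raphe nuclei of the brainstem, where the neurons that make it have their cell bodies. Its receptors are coded by separate genes. Those of the Htr1 and Htr5 families couple to inhibitory G proteins that lower cyclic AMP and can open potassium channels, those of the Htr2 family couple to Gq and phospholipase C, and those of Htr4, Htr6 and Htr7 couple to Gs and raise cyclic AMP. Htr3a codes for a subunit of a cation channel that serotonin opens directly. In the hippocampus, Htr1a is known from granule and pyramidal cells, Htr3a from interneurons and Htr2c also from the choroid plexus, the epithelium that makes cerebrospinal fluid.

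Between 32223034 and 49990637 read pairs were sequenced per library, with a median of 44765652. Counts on genes per mouse ranged from 16760009 to 45872357. Markers of dentate granule cells were present in every mouse, with 7 markers summing to between 490 and 1046 CPM (counts normalized to library size by TMM). Markers of the choroid plexus summed to 19.3 to 82.8 CPM in 48 mice and to 188 to 1016 CPM in the other 6, which were SH control mouse 3, SH SUS mice 3 and 7, EE control mouse 9, EE RES mouse 3 and EE SUS mouse 3. Differences that rest on these mice are also given without them. Of the markers of serotonin neurons, Fev had 0 counts in all 54 mice and the serotonin transporter Slc6a4 had a median of 2 counts.

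Htr1a, Htr4 and Htr3a were the most abundant receptor transcripts per length. Levels of different genes were compared as CPM per kb of exon, on which scale the median gene tested had 3.74. Htr1a had a median of 9.34 over the 54 mice, Htr4 had 8.56 and Htr3a had 7.92. These 3 genes made up medians of 25.6%, 23.5% and 21.8% of the summed per-length level of the 10 genes. Htr7 followed with a median of 3.16 CPM per kb, Htr5a with 2.32 and Htr2a with 2.15. The lowest 4 were Htr2c with 1.05, Htr5b with 0.675, Htr6 with 0.393 and Htr1b with 0.333 CPM per kb. Htr1a lay above 72.2% of the genes tested and Htr1b above 10.6%.

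**Figure D1:**
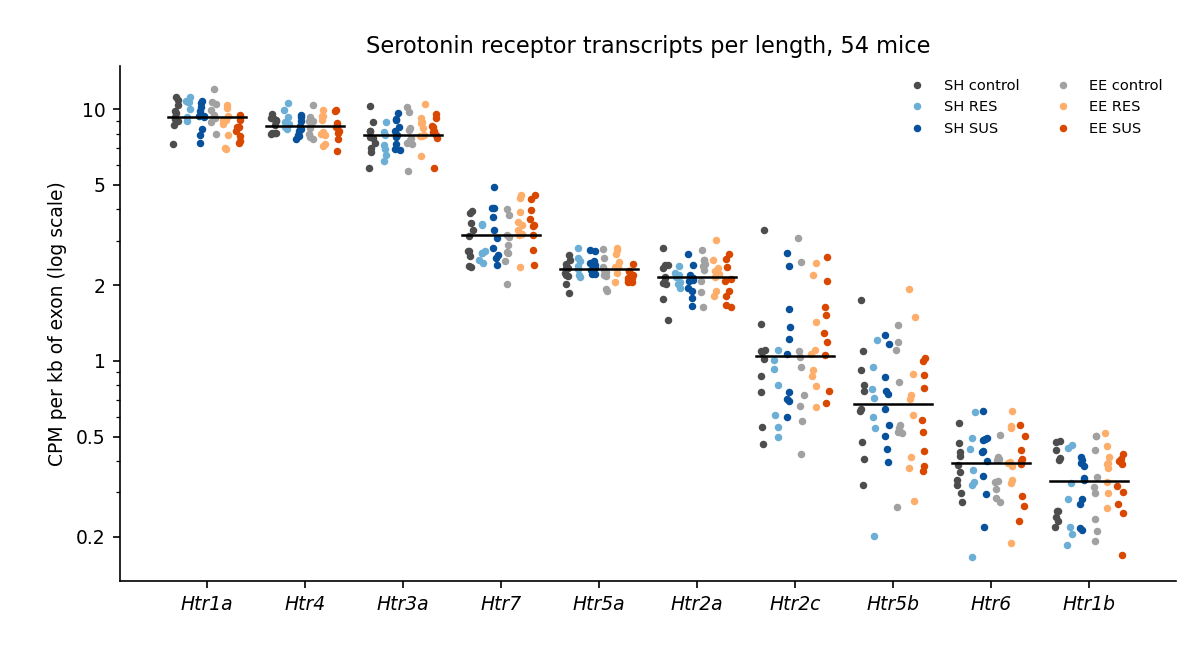
Level of each receptor transcript in CPM per kb of exon on a log scale, with 1 point per mouse, colored by group, and a line at the median of the 54 mice. Htr1a, Htr4 and Htr3a stand above the other 7 genes in all mice, and the points of Htr2c and Htr5b are the most spread.

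Neighbors in this order often overlapped. Htr1a was above Htr4 in 36 of 54 mice and Htr4 was above Htr3a in 36. Htr3a was above Htr7 in all 54 mice, so the first 3 genes stood apart from the rest. Htr7 was above Htr5a in 51 mice, Htr5a above Htr2a in 37, Htr2a above Htr2c in 49, Htr2c above Htr5b in 44, Htr5b above Htr6 in 44 and Htr6 above Htr1b in 34. The order of group medians was the same in SH control, SH RES and SH SUS mice. In EE control mice Htr2a was above Htr5a, in EE RES mice Htr3a was above Htr4, and in EE SUS mice Htr4 was above Htr1a, each by a margin within the spread of the mice. When the longest transcript was used as the length in place of all exons, the Htr2c median became 2.005 CPM per kb and the order stayed the same.

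Spread between mice of a group differed widely among the receptors. The within-group coefficient of variation was 9.47% for Htr5a, 9.53% for Htr4, 11.5% for Htr1a, 14.1% for Htr3a, 15.3% for Htr2a and 20.4% for Htr7. Htr6 had 28.5% and Htr1b 29.2%, at median counts of 19 and 34.5 per mouse, where counting error by itself gives 22.2% and 16.9%. Htr5b reached 51.1% at a median of 28.5 counts. Htr2c reached 58.1% at a median of 208 counts, which is 9.32 times its counting error of 6.24%. On the log2 scale, 99.2% of all genes tested had a smaller within-group SD than Htr2c, and 99.0% a smaller one than Htr5b. The 2 libraries of EE control mouse 9 gave 28.5 and 27.9 CPM for Htr2c, 35.8 and 34.8 CPM for Htr1a, and 1.26 and 0.634 CPM for Htr6. The high Htr2c value of that mouse thus recurred in both of its libraries, and the Htr6 value did not repeat closely. The labels mark the second library as a repeat and do not say which step was repeated.

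No receptor transcript was called in any of 14 comparisons (adjusted p below 0.05 by the quasi-likelihood test of edgeR, adjusted after Benjamini and Hochberg over all genes), and limma-voom and DESeq2 called none either. The share of all genes called was 2.42% for EE against SH over all phenotypes, 0.273% for EE RES against SH RES, 0.0438% for defeated against unstressed mice, 0.0328% for SH SUS against SH control, 0.00547% for EE against SH control mice and the same for EE SUS against SH SUS, and 0% in the other 8 comparisons. None of the 10 genes met the criterion of the study, an unadjusted limma-voom p below 0.05 with a fold change above 1.3, which 0.454% to 3.24% of all genes met. Within SH this share was 1.21% for RES and 0.93% for SUS against control mice and 1.14% for SUS against RES mice, and within EE it was 1.17%, 1.94% and 1.1% in the same order. For EE against SH it was 1.12% in control, 3.24% in RES, 1.56% in SUS and 0.613% in all mice. It was 0.481% for defeated against unstressed mice, 0.454% for SUS against RES mice, 1.68% for the interaction of defeat with housing and 2.29% for that of SUS against RES with housing. An unadjusted edgeR p below 0.05 was reached in 10 of 140 tests of the receptors, or 7.14%, beside 6.88% of all 255962 tests. DESeq2 gave 9 such tests and limma-voom 8. These 10 tests concerned Htr1a, Htr5a, Htr7 and Htr2c, whose values follow with the other receptors of each family. The shares of all genes with an unadjusted p below 0.05 in the same comparisons are given beside them. In the comparisons where 0 receptors had such a p, the shares were 3.51% for SH RES and 2.78% for SH SUS against SH control, 5.02% for EE against SH control mice, 4.81% for defeated against unstressed mice and 3.67% for SUS against RES mice. Comparisons within a housing shared its control mice, and the other comparisons shared mice with them as well.

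**Figure D2:**
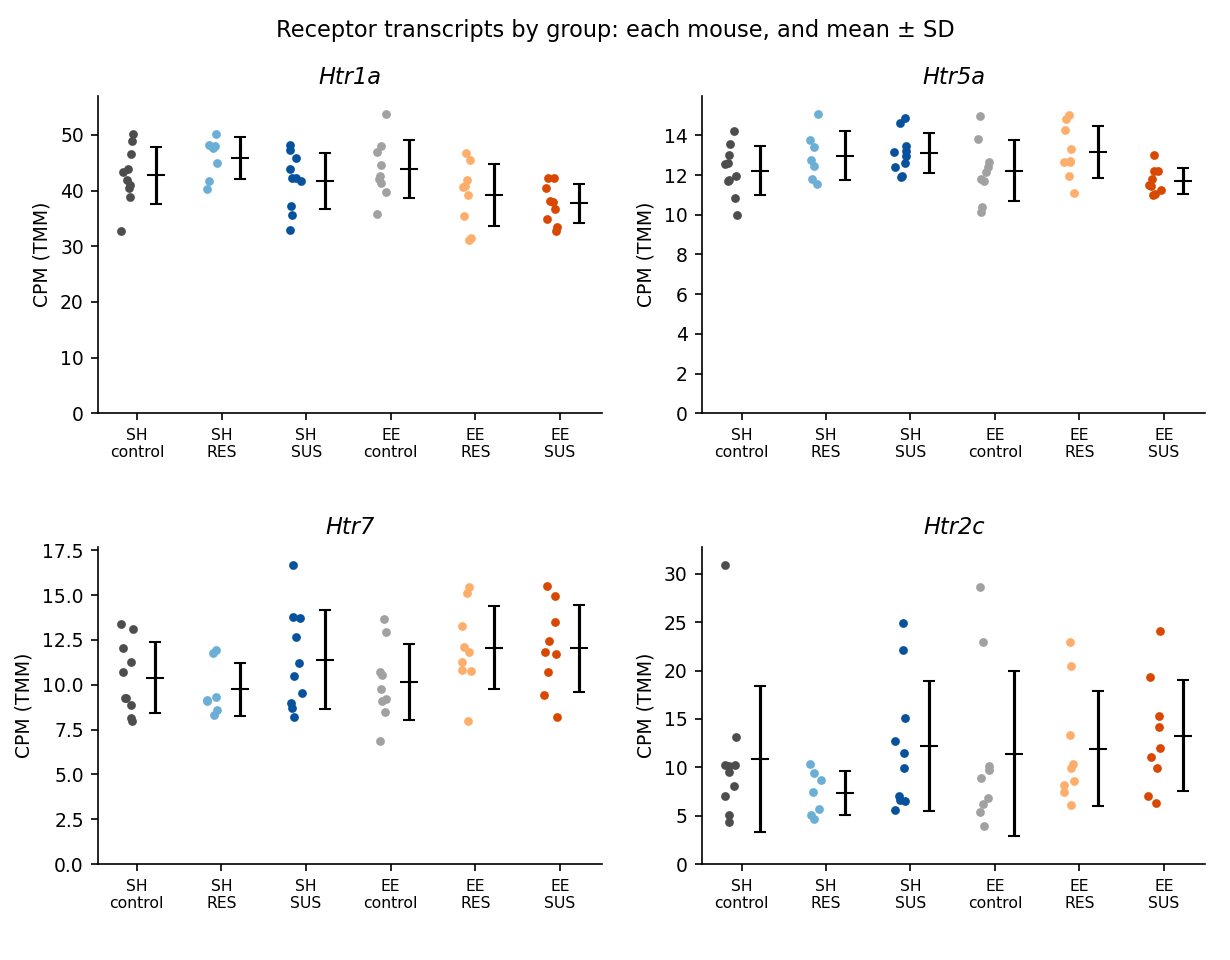
CPM of Htr1a, Htr5a, Htr7 and Htr2c in each mouse (points) with the mean and SD of each group (black bars), by group, on axes that start at 0. Htr1a values of EE SUS mice reach no higher than 42.3 CPM, Htr5a values of EE SUS mice lie close together, and SH RES is the only group of the 6 with no mouse above 20 CPM of Htr2c.

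Htr1a (ENSMUSG00000021721, chromosome 13, 105443639 to 105448122 in GRCm38, plus strand, an intronless gene of 4484 bases) codes for the inhibitory receptor that acts as the autoreceptor of raphe neurons and as a postsynaptic receptor in the hippocampus. In SH mice its level was 32.7 to 50.2 CPM with a median of 42.5 in controls, 40.2 to 50.1 with a median of 47.7 in RES mice and 32.8 to 48.1 with a median of 42.2 in SUS mice. In EE mice it was 35.8 to 53.7 CPM with a median of 42.7 in controls, 31.2 to 46.7 with a median of 40.6 in RES mice and 32.8 to 42.3 with a median of 38.0 in SUS mice. The defeated EE groups had the lowest medians, and all 6 groups overlapped.

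For EE against SH mice over all phenotypes, Htr1a had a log2 fold change of -0.11 (95% CI -0.20 to -0.02, p = 0.0150, adjusted p = 0.161, edgeR), in a comparison in which 17.6% of all genes had an unadjusted p below 0.05. In EE SUS mice Htr1a averaged 37.7 ± 3.53 CPM (SD) against 43.9 ± 5.22 in EE control mice, a log2 fold change of -0.22 (95% CI -0.37 to -0.06, p = 0.00683, adjusted p = 0.451, edgeR), beside 7.9% of all genes. All 9 EE SUS mice lay below the EE control median, and 5 of 9 EE control mice lay above every EE SUS mouse. Here all 8 thalamus markers were higher in EE SUS mice at an unadjusted p below 0.05, with a list median of 1.24 on the log2 scale, and with choroid plexus and thalamus scores in the model the Htr1a value was -0.14 (p = 0.0752). Over 12 alternative settings, apart from leaving out single mice, this value ranged from -0.27 to -0.12. Its unadjusted p ranged from 0.000586 to 0.0752 (edgeR, limma-voom or DESeq2), with a smallest adjusted p of 0.145. In EE RES mice Htr1a averaged 39.2 ± 5.53 CPM, with a log2 fold change of -0.16 against EE control (95% CI -0.32 to -0.01, p = 0.0404, adjusted p = 0.623, edgeR), beside 7.91% of all genes. In this comparison 4 of 8 thalamus markers (list median 0.64) and 2 of 8 CA3 and CA2 markers were higher and 1 of 7 dentate granule markers was lower at an unadjusted p below 0.05, and with choroid plexus and thalamus scores in the model the Htr1a value was -0.14 (p = 0.0517). Against the 45.8 ± 3.69 CPM of SH RES mice the value was -0.23 (95% CI -0.39 to -0.06, p = 0.00782, adjusted p = 0.154, edgeR), beside 16% of all genes. This adjusted p was the smallest of the 140. All 9 EE RES mice lay below the SH RES median.

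The effect of defeat on Htr1a differed between housings by -0.22 on the log2 scale (95% CI -0.41 to -0.03, p = 0.0215, adjusted p = 0.756, edgeR interaction term), beside 6.47% of all genes. With choroid plexus and thalamus scores in the model it was -0.16 (p = 0.0800). Over 11 alternative settings it ranged from -0.25 to -0.09 (unadjusted p from 0.00626 to 0.182, edgeR, limma-voom or DESeq2). In the interaction 5 of 8 thalamus markers (list median 0.86), 2 of 10 choroid plexus markers (1.43), 2 of 8 CA3 and CA2 markers and 1 of 4 oligodendrocyte markers had an unadjusted p below 0.05 and a positive value. Within SH, Htr1a differed from controls by 0.10 in RES mice (95% CI -0.06 to 0.26) and by -0.04 in SUS mice (95% CI -0.18 to 0.11). EE and SH control mice differed by 0.03 (95% CI -0.11 to 0.18). Without EE control mouse 8, which had the highest Htr1a of all mice at 53.7 CPM, the EE RES against EE control value was -0.12 (p = 0.123) and the EE SUS value -0.17 (p = 0.0274), and the interaction was -0.18 (p = 0.0562).

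Markers of several cell types differed with housing in the same mice. All 4 oligodendrocyte markers tested had an unadjusted p below 0.05 and a higher level in EE than in SH mice, 2 of them with an adjusted p below 0.05, and their median log2 fold change was 0.26 beside 0.00 for all genes. Their summed level was 732 to 1680 CPM in SH SUS mice and 925 to 1605 in EE SUS mice, with medians of 902 and 1311. Of 7 dentate granule markers, 3 had an unadjusted p below 0.05 and were lower in EE than in SH, 1 of them at an adjusted p below 0.05, with a list median of -0.12. All 4 endothelial markers (list median 0.16, 1 at an adjusted p below 0.05) and 3 of 4 microglia markers (0.07) were higher in EE at an unadjusted p below 0.05, while of 8 CA3 and CA2 markers 3 were higher and 2 lower, 1 of the lower ones at an adjusted p below 0.05. When scores of the dentate granule, CA3 and CA2, and oligodendrocyte markers were added to the model, an alternative chosen after seeing the data, the Htr1a value was -0.03 for EE against SH (p = 0.474), -0.08 for EE RES against SH RES (p = 0.194), -0.12 for EE SUS against EE control (p = 0.0426), -0.10 for EE RES against EE control (p = 0.0844) and -0.09 for the interaction (p = 0.182). In bulk tissue, fewer cells of a type and less RNA per cell cannot be told apart.

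Htr1b (ENSMUSG00000049511, chromosome 9, 81628291 to 81633828, minus strand), the inhibitory receptor known from axon terminals, was the least abundant of the 10 genes. Its group medians lay between 1.34 CPM in SH RES and 1.83 CPM in EE RES mice, and single mice had 0.798 to 2.44 CPM. The groups overlapped throughout. The largest of its group differences was 0.31 on the log2 scale for EE RES against SH RES, with a 95% CI of -0.11 to 0.73. A difference of that size in either direction could thus not be detected between these 2 groups. The pooled intervals of Htr1b were narrower, at -0.13 to 0.32 for EE against SH, -0.27 to 0.20 for defeated against unstressed and -0.36 to 0.21 for SUS against RES mice. Single mice had 17 to 74 counts, the most in EE control mouse 9, whose 2 libraries were summed. Of reads on the 2 strands of Htr1b, 9.65% lay on the strand opposite to the gene, where the annotation places the overlapping gene D430036J16Rik.

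Htr5a (ENSMUSG00000039106, chromosome 5, 27842149 to 27855088, plus strand) codes for an inhibitory receptor found mainly in neurons. Its level was 10.01 to 14.2 CPM with a median of 12.3 in SH control, 11.6 to 15.1 with a median of 12.8 in SH RES and 11.9 to 14.9 with a median of 13.1 in SH SUS mice. It was 10.1 to 14.96 with a median of 12.1 in EE control, 11.1 to 15.03 with a median of 12.7 in EE RES and 11.02 to 13.01 with a median of 11.5 in EE SUS mice. EE SUS mice were lowest as a group and the most uniform, and they overlapped each other group.

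In EE SUS mice Htr5a averaged 11.7 ± 0.657 CPM (SD) against 13.1 ± 1.01 in SH SUS mice, a log2 fold change of -0.16 (95% CI -0.29 to -0.04, p = 0.0120, adjusted p = 0.543, edgeR), beside 7.36% of all genes with an unadjusted p below 0.05. All 9 EE SUS mice lay below the SH SUS median, and 6 of them lay below every SH SUS mouse. In this comparison 7 of 8 thalamus markers (list median 0.74), 3 of 4 oligodendrocyte markers (0.33) and 3 of 4 endothelial markers (0.18) were higher in EE SUS mice at an unadjusted p below 0.05, and with scores of dentate granule, CA3 and CA2, and oligodendrocyte markers in the model the Htr5a value was -0.12 (p = 0.0517). Against the 13.2 ± 1.32 CPM of EE RES mice the value was -0.17 (95% CI -0.30 to -0.04, p = 0.0110, adjusted p = 0.9997, edgeR), beside 3.52% of all genes, and 8 of 9 EE SUS mice lay below the EE RES median. With the same scores in the model, this value was -0.10 (p = 0.0914). At an unadjusted p below 0.05, 2 of 8 thalamus markers were higher in EE SUS than in EE RES mice (list median 0.61). At that threshold 1 of 5 CA1 pyramidal markers (-0.47) and 2 of 7 markers of interneurons from the caudal ganglionic eminence (-0.08) were lower. The scores in the model hold none of these lists. The SUS against RES difference in Htr5a was 0.02 in SH (95% CI -0.12 to 0.15), and the difference between housings was -0.19 (95% CI -0.37 to -0.00018, p = 0.0498, adjusted p = 0.977, edgeR interaction term), beside 4.84% of all genes. Limma-voom and DESeq2 gave unadjusted p-values of 0.0513 and 0.0518 for this interaction, and with the same scores in the model it was -0.09 (p = 0.258).

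Htr5b (ENSMUSG00000050534, chromosome 1, 121509842 to 121528465, minus strand), a close relative of Htr5a whose human counterpart is a pseudogene, was found at 0.388 to 3.72 CPM. Group medians ranged from 1.07 CPM in EE control to 1.38 CPM in SH RES mice, a much smaller range than that between mice of a group. The highest mice were EE RES mouse 1 with 3.72 CPM and SH control mouse 3 with 3.37 CPM. Its differences between groups ranged from -0.30 for EE SUS against EE RES to 0.20 for EE RES against SH RES on the log2 scale, with intervals that reached -0.94 and 0.88.

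Htr2a (ENSMUSG00000034997, chromosome 14, 74640840 to 74709494, plus strand) codes for the excitatory receptor through which classical psychedelics act. It was found at 8.18 to 16.9 CPM in single mice, and its group medians lay between 11.7 CPM in EE SUS and 13.3 CPM in EE control mice. The largest of its group differences was -0.13 for EE SUS against EE control, with a 95% CI of -0.33 to 0.07. For EE against SH mice the value was 0.05 with a 95% CI of -0.06 to 0.17, an interval that leaves out a change of 1.3-fold.

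Htr2c (ENSMUSG00000041380, chromosome X, 146962513 to 147197277, plus strand) codes for the Gq-coupled receptor whose pre-mRNA is edited and whose introns carry small RNA genes. Its level was 4.35 to 31.0 CPM with a median of 9.80 in SH control, 4.67 to 10.3 with a median of 7.49 in SH RES and 5.59 to 25.0 with a median of 10.7 in SH SUS mice. It was 3.97 to 28.6 with a median of 8.85 in EE control, 6.13 to 22.9 with a median of 9.97 in EE RES and 6.32 to 24.1 with a median of 12.03 in EE SUS mice. SH RES was the one group without a mouse above 20 CPM.

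Htr2c averaged 12.2 ± 6.76 CPM (SD) in SH SUS and 7.33 ± 2.23 CPM in SH RES mice, a log2 fold change of 0.74 (95% CI 0.01 to 1.48, p = 0.0481, adjusted p = 0.934, edgeR), beside 4.88% of all genes with an unadjusted p below 0.05. Limma-voom gave p = 0.104. Of the 10 SH SUS mice, 5 lay above every SH RES mouse, and 4 lay below the SH RES median. Without SH SUS mouse 3 the value was 0.56 (p = 0.132), and without all 6 mice of high choroid plexus markers, 2 of which were SH SUS and none SH RES, it was 0.55 (p = 0.0725). Of 10 choroid plexus markers tested, 1 was higher in SH SUS than in SH RES mice at an unadjusted p below 0.05, with a list median of 0.93, and 3 of 7 dentate granule markers were lower. At that threshold 2 of 8 CA3 and CA2 markers were higher (list median 0.13). Lower were 2 of 3 mossy cell markers (-0.34) and 1 of 5 CA1 pyramidal markers (-0.07). With choroid plexus and thalamus scores in the model the Htr2c value was 0.36 (p = 0.139, edgeR). With scores of dentate granule, CA3 and CA2, and oligodendrocyte markers it was 0.13 (p = 0.519, edgeR). Over both housings, SUS and RES mice differed in Htr2c by 0.45 (95% CI -0.05 to 0.94), EE and SH mice by 0.31 (95% CI -0.09 to 0.70), and defeated and unstressed mice by -0.06 (95% CI -0.46 to 0.35). Without the 6 mice of high choroid plexus markers the last value turned to 0.15 (p = 0.392), and with scores of dentate granule, CA3 and CA2, and oligodendrocyte markers in the model it was -0.23 (p = 0.0491). For defeated against unstressed mice, 3 of 10 choroid plexus markers were lower (list median -0.54) and 6 of 8 thalamus markers higher (0.49) at an unadjusted p below 0.05.

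Htr4 (ENSMUSG00000026322), which codes for a Gs-coupled receptor, was the least variable of the abundant receptors relative to its level. It was 39.0 to 47.2 CPM in SH control, 40.9 to 52.1 in SH RES, 37.5 to 46.5 in SH SUS, 37.5 to 51.0 in EE control, 35.1 to 48.6 in EE RES and 33.6 to 48.7 in EE SUS mice. The medians of these groups were 43.2, 43.6, 41.1, 42.7, 39.9 and 41.6 CPM in the same order, and the groups overlapped almost fully. The log2 difference was -0.04 for EE against SH mice (95% CI -0.11 to 0.04), -0.01 for defeated against unstressed mice (95% CI -0.08 to 0.07) and -0.06 for SUS against RES mice (95% CI -0.15 to 0.03). These are the narrowest of the pooled intervals, and each leaves out a change of 1.3-fold in either direction.

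Htr6 (ENSMUSG00000028747, chromosome 4, 139061108 to 139075570, minus strand), a Gs-coupled receptor known from primary cilia of neurons, was near the limit of detection. Single mice had 8 to 43 counts, or 0.388 to 1.48 CPM, and group medians lay between 0.780 CPM in EE control and 1.02 CPM in SH SUS mice. Of reads on the 2 strands of Htr6, 30.3% lay opposite to the gene, where the annotation used here has no gene, against 3.51% to 4.13% over all genes of a mouse. Its pooled differences were -0.05 for EE against SH (95% CI -0.27 to 0.18), 0.10 for defeated against unstressed (95% CI -0.14 to 0.33) and 0.00 for SUS against RES mice (95% CI -0.28 to 0.29).

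Htr7 (ENSMUSG00000024798, chromosome 19, 35958734 to 36057507, minus strand), a Gs-coupled receptor known from CA3 pyramidal cells and the thalamus, had 8.01 to 13.4 CPM with a median of 9.99 in SH control, 8.34 to 11.9 with a median of 9.15 in SH RES and 8.21 to 16.7 with a median of 10.9 in SH SUS mice. It had 6.87 to 13.7 with a median of 9.79 in EE control, 7.99 to 15.4 with a median of 11.8 in EE RES and 8.18 to 15.5 with a median of 11.8 in EE SUS mice. Medians of the defeated EE groups were the highest, and all groups overlapped.

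EE RES mice averaged 12.1 ± 2.31 CPM (SD) of Htr7 against 9.74 ± 1.48 in SH RES mice, a log2 fold change of 0.31 (95% CI 0.03 to 0.59, p = 0.0320, adjusted p = 0.258, edgeR), in the comparison in which 16% of all genes had an unadjusted p below 0.05. Of the 9 EE RES mice, 8 lay above the SH RES median and 4 lay above every SH RES mouse. The value was 0.26 without EE RES mouse 8 (p = 0.0760), also 0.26 without the 6 mice of high choroid plexus markers (p = 0.0579), and 0.04 with scores of dentate granule, CA3 and CA2, and oligodendrocyte markers in the model (p = 0.618). In this comparison 4 of 7 dentate granule markers were lower and 3 of 8 CA3 and CA2 markers were higher in EE RES mice at an unadjusted p below 0.05, while 1 of the 8 was lower. At that threshold 3 of 4 oligodendrocyte markers (list median 0.38), 1 of 10 choroid plexus markers (0.83) and 1 of 7 GABA interneuron markers (0.12) were higher. Of 3 mossy cell markers, 1 was lower (list median -0.32). In EE, Htr7 differed from controls by 0.24 in RES mice (95% CI -0.02 to 0.50) and by 0.23 in SUS mice (95% CI -0.03 to 0.49).

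Htr3a (ENSMUSG00000032269, chromosome 9, 48899213 to 48911099, minus strand), the channel subunit, was found at 11.9 to 21.8 CPM in single mice. Group medians lay between 15.0005 CPM in SH RES and 17.6 CPM in EE RES mice, and the groups overlapped. The largest of its group differences was 0.19 for EE RES against SH RES (95% CI -0.01 to 0.39, p = 0.0671, adjusted p = 0.348, edgeR). For EE against SH mice the value was 0.08 (95% CI -0.03 to 0.19) and for defeated against unstressed mice 0.02 (95% CI -0.10 to 0.13).

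**Figure D3:**
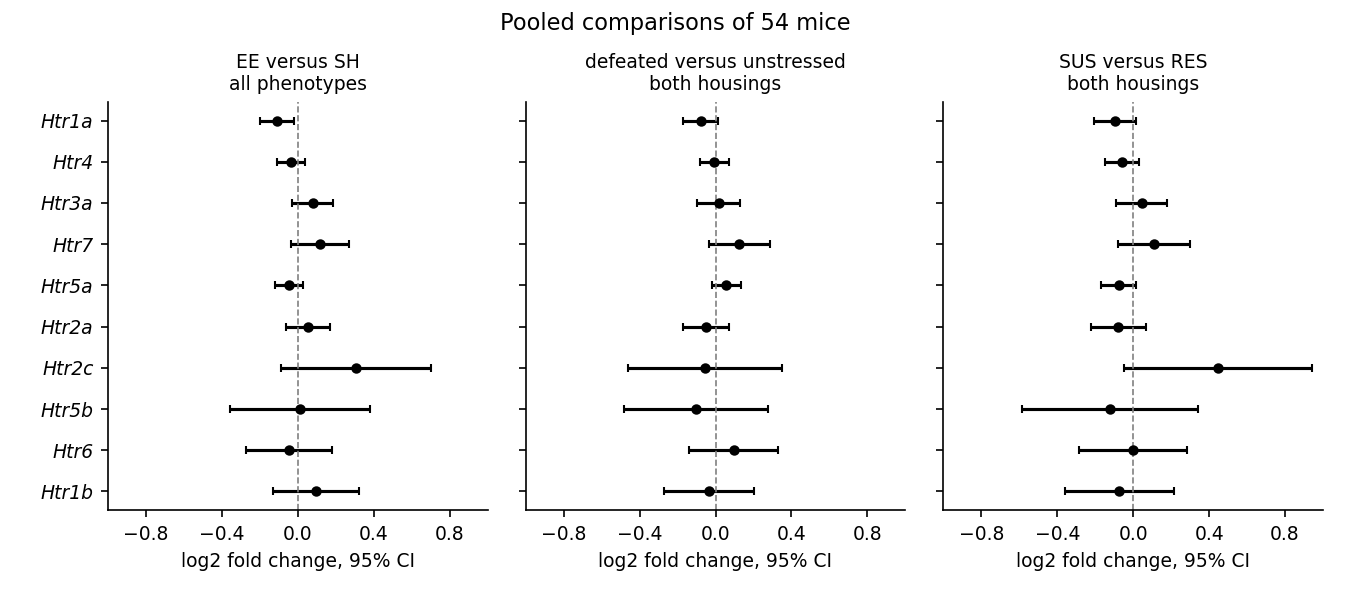
Log2 fold change of each receptor transcript with its 95% CI in 3 pooled comparisons of the 54 mice, with genes in order of per-length level. The interval of Htr1a for EE against SH, from -0.20 to -0.02, is the only one of the 30 that leaves out 0, and the intervals of Htr2c and Htr5b are the widest.

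Over the 3 pooled comparisons, the median log2 value of the 10 receptors was 0.03 for EE against SH, -0.02 for defeated against unstressed and -0.07 for SUS against RES mice, beside 0.00 for all genes in each. The largest of the 30 pooled values was the 0.45 of Htr2c for SUS against RES mice.

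Within groups, the levels of most receptors moved with marker genes of cell types. For each mouse, log2 CPM with the group mean subtracted was correlated with the mean z-score of 14 marker lists, and the receptors with each other, over 54 mice. Of these 185 relations, 73 had an adjusted p below 0.05 for Pearson's r (permutation test with 100000 resamples, Benjamini-Hochberg adjusted over the 185), and 61 did without the 6 mice of high choroid plexus markers. The share of all genes that follow these lists was not computed, so these counts do not set the receptors apart from other genes. The relations that follow had a permutation p of 1e-05 for r, the smallest these resamples can give, and an adjusted p of 7.71e-05, unless another value is given.

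Htr2c and Htr7 followed the same lists. With dentate granule markers, Htr2c had r = -0.80 (Spearman's rho = -0.77) and Htr7 r = -0.80 (rho = -0.79). With CA3 and CA2 markers, Htr2c had r = 0.71 (rho = 0.70) and Htr7 r = 0.78 (rho = 0.76). With oligodendrocyte markers the values were r = 0.60 (rho = 0.58, permutation p = 3e-05 for rho) and r = 0.65 (rho = 0.63). The 2 receptors had r = 0.81 with each other (rho = 0.83), and 0.77 without the 6 mice of high choroid plexus markers. Without the 2 mice farthest from the median of the marker score, the r with dentate granule markers was -0.77 for Htr2c and -0.78 for Htr7, and with CA3 and CA2 markers 0.68 and 0.75.

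Htr1a went the other way. It had r = 0.64 with dentate granule markers (rho = 0.62), -0.62 with CA3 and CA2 markers (rho = -0.58) and -0.74 with oligodendrocyte markers (rho = -0.67). Without the 2 mice farthest from the median score these were 0.62, -0.59 and -0.69. Htr1a and Htr2c had r = -0.56 (rho = -0.51, permutation p = 0.00011 for rho), and -0.52 without SH control mouse 3 and EE control mouse 9.

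Htr3a had r = 0.66 with GABA interneuron markers (rho = 0.57) and -0.67 with dentate granule markers (rho = -0.68), or 0.59 and -0.68 without the 2 farthest mice. Htr2a had r = 0.56 with GABA interneuron markers (rho = 0.48, permutation p = 0.00034 for rho), or 0.51 without the 2 farthest mice, and r = 0.65 with Htr3a (rho = 0.61), or 0.58. With markers of interneurons from the caudal ganglionic eminence, the class in which Htr3a is best known, Htr3a had r = 0.26 (rho = 0.19, permutation p = 0.0599 for r, adjusted p = 0.119), and 0.11 without the 2 farthest mice.

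Htr5b had r = 0.77 with CA1 pyramidal markers (rho = 0.77), or 0.73 without EE RES mouse 1 and SH control mouse 3. Htr5a and Htr5b had r = 0.59 (rho = 0.58), or 0.55 without the 2 farthest mice. Htr1b had r = 0.55 with CA1 pyramidal markers (rho = 0.55, permutation p = 4e-05 for r and 3e-05 for rho, adjusted p = 0.000285), or 0.52 without the 2 farthest mice. Htr4 had its largest r with endothelial markers at -0.39 (rho = -0.455, permutation p = 0.00344, adjusted p = 0.0133), and -0.52 without the 2 farthest mice. Htr6 had its largest r with habenula markers at 0.47 (rho = 0.45, permutation p = 0.00035, adjusted p = 0.00202), and 0.44 without the 2 farthest mice. That score rested on 3 of 6 markers, Nwd2, Tac2 and Chrna3, with median counts of 1534, 23 and 8. The markers Gpr151, Chrnb4 and Pou4f1 did not pass the low-count filter, and Pou4f1 had 0 counts in 46 mice. The score therefore cannot show habenula tissue. Scores of all lists come from the same libraries and are not independent of each other.

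**Figure D4:**
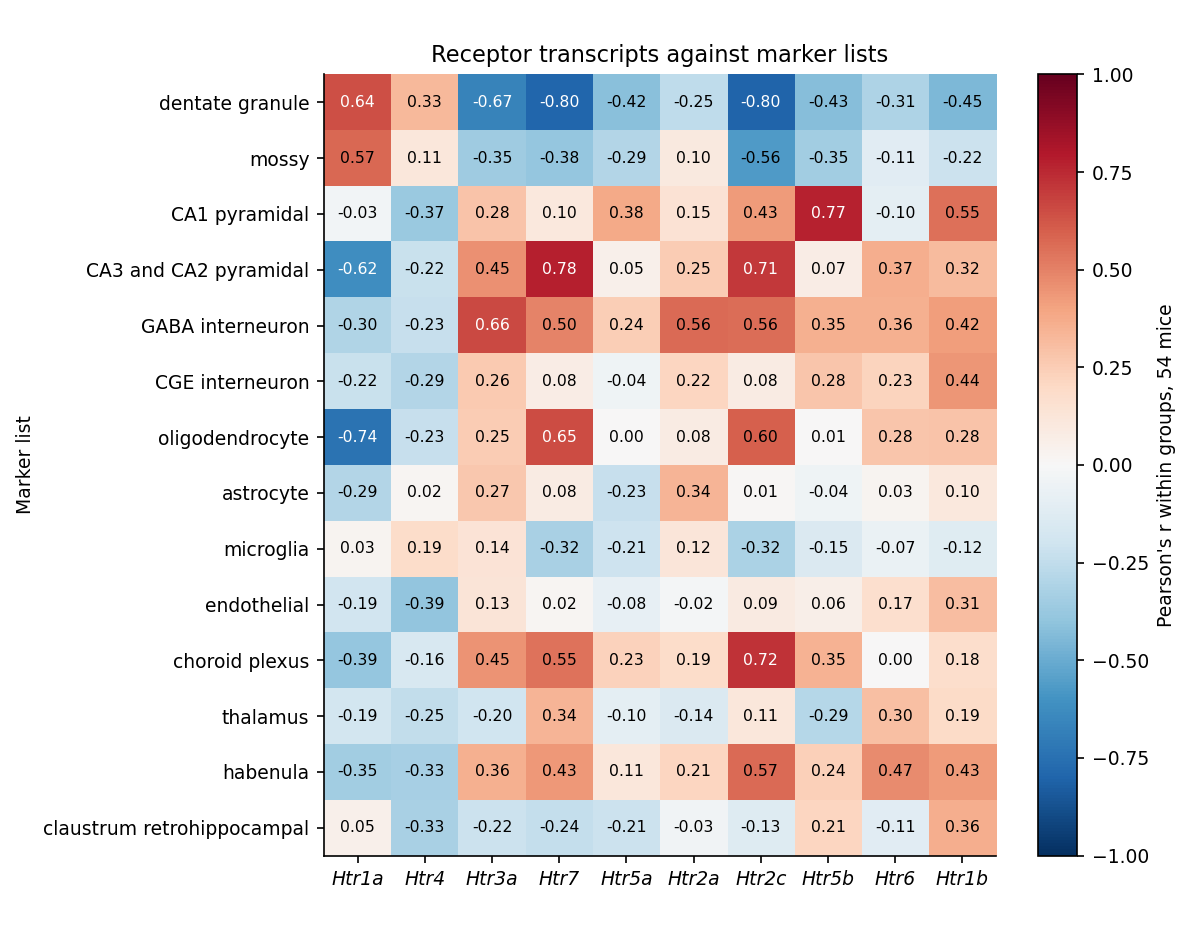
Pearson's r between each receptor transcript and each of 14 marker lists over 54 mice, after subtraction of group means, from -1 (blue) to 1 (red). Htr1a and Htr4 have positive values with dentate granule markers (0.64 and 0.33), and the other 8 receptors have negative ones.

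Htr2c in the 6 mice of high choroid plexus markers was 11.4 to 31.0 CPM with a median of 24.5, against 3.97 to 23.0 CPM with a median of 9.13 in the other 48. The 4 mice with the highest Htr2c of all were among these 6, and SH SUS mouse 7, with choroid plexus markers at 188 CPM, had 11.4 CPM of Htr2c and ranked 17 of 54. Of the other 48 mice, EE control mouse 5 had 23.0 CPM of Htr2c with choroid plexus markers at 28.8 CPM in sum, and SH SUS mouse 6 had 22.2 CPM with markers at 29.2 CPM. The choroid plexus transcript Ttr was 6.62 CPM in the first and 4.22 CPM in the second of these mice, both above its median of 0.305 CPM over the 54 mice. EE RES mouse 8 had 20.5 CPM of Htr2c, with markers at 82.8 CPM and Ttr at 56.0 CPM. EE SUS mouse 1 had 19.3 CPM of Htr2c, with markers at 73.4 CPM and Ttr at 45.5 CPM. The 48 mice were thus not free of choroid plexus RNA. Most of the sum in a typical mouse came from Kl, with a median of 19.6 CPM. Because the mice fell into separate clusters, the relation of Htr2c with choroid plexus markers was computed in the 48 mice, where r was 0.57 (rho = 0.56, permutation p = 1e-05 for r and 5e-05 for rho, adjusted p = 0.000142). In the same 48 mice Htr2c had r = -0.76 with dentate granule markers and 0.65 with CA3 and CA2 markers. Without the 6 mice, group means of Htr2c ranged from 7.33 ± 2.23 CPM (SD) in SH RES to 11.9 ± 4.32 CPM in EE SUS mice, and the SH SUS mean was 10.7 ± 5.73 CPM.

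**Figure D5:**
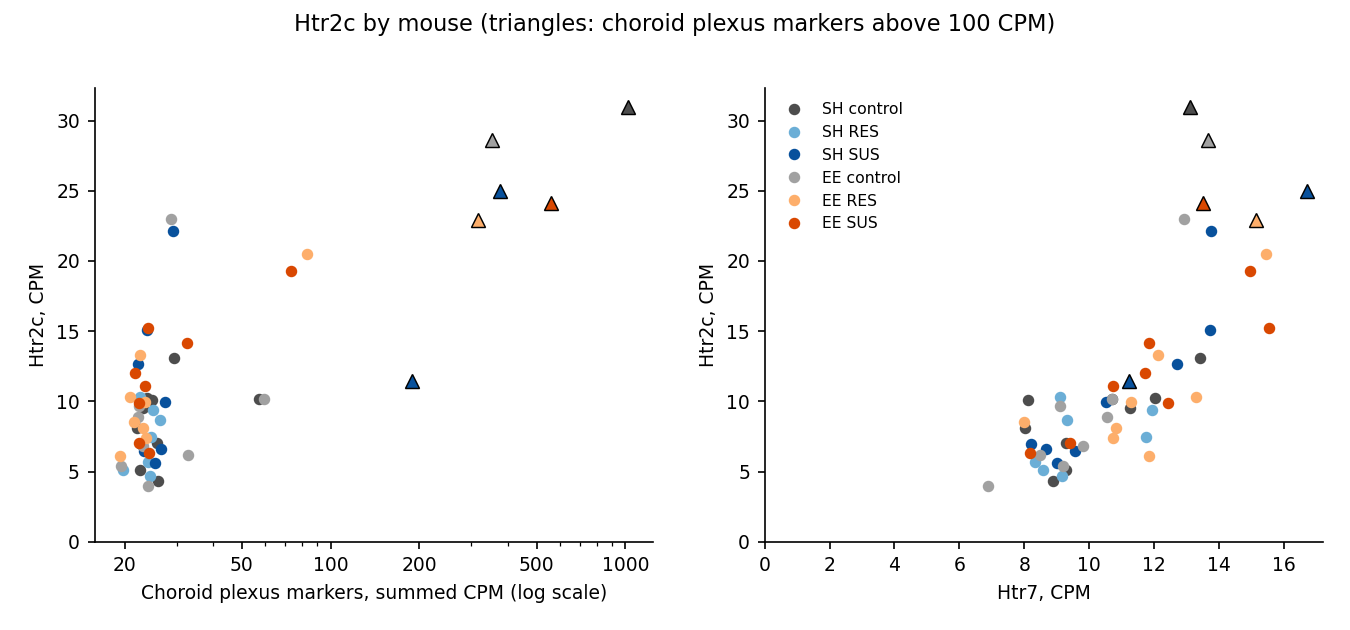
Htr2c in CPM against the summed CPM of choroid plexus markers (left, log scale) and against Htr7 in CPM (right), with 1 point per mouse colored by group and triangles for the 6 mice whose choroid plexus markers sum to more than 100 CPM. The triangles hold the 4 highest Htr2c values, from 24.1 to 31.0 CPM, and Htr2c increases with Htr7 among the circles as well.

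The genes whose pattern over the 54 mice was most like that of each receptor, after subtraction of group means, were searched among 15240 genes with a mean of at least 1 CPM. For Htr1a they were Lypd1 (r = 0.85), Efnb3 (0.82) and Krt2 (0.80). For Htr2c they were Igfbp3 (0.88), Zfp385b (0.87) and Plcxd3 (0.85), and for Htr7 they were Htr2c itself (0.81), Phactr2 (0.80) and Nrip3 (0.80). For Htr5b they were Gpr161 (0.81), the CA1 marker Mpped1 (0.81) and Ccn3 (0.80), and for Htr3a they were Crym (0.79), the cannabinoid receptor gene Cnr1 (0.79) and Npr3 (0.78). The highest r was lower for the other receptors, and their nearest genes were Crtac1 (0.74), Gap43 (0.66) and Myh7 (0.65) for Htr5a, Vgll3 (0.73), Coch (0.71) and Cntnap3 (0.67) for Htr2a, and Zfp277 (0.70), Rilpl2 (0.69) and Ppfia2 (0.69) for Htr4. For Htr1b they were Tenm3 (0.69), Pcdh10 (0.67) and Smad9 (0.66), and for Htr6 P3h2 (0.66), Gatad2a (0.57) and Peak1 (0.54). These are descriptions of the nearest of many genes and carry no test.

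Of the 4 other serotonin receptor genes looked up, only Htr1f passed the low-count filter. Htr1f, an inhibitory receptor gene, had 1.21 to 3.06 CPM with a median of 2.02. It differed by 0.19 between defeated and unstressed mice (p = 0.0374, adjusted p = 0.987, edgeR) and by 0.29 between EE SUS and EE control mice (p = 0.0492, adjusted p = 0.633, edgeR). Htr1d had a median of 3 counts per mouse, Htr2b had 0 counts in 34 mice and Htr3b, the partner subunit of Htr3a, had 0 counts in 43 mice.

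Of 9 genes for the synthesis, transport and breakdown of serotonin, 7 were tested and 0 were called in any comparison. Maoa, which codes for the main serotonin-degrading oxidase, had a median of 38.9 CPM, Maob 21.7 CPM and the low-affinity transporter Slc29a4 21.99 CPM. Tph2, which codes for the enzyme that makes serotonin in neurons, had 0.473 to 1.52 CPM and the vesicular transporter Slc18a2 2.48 to 5.12 CPM. The low-affinity transporter Slc22a3 had 0.0879 to 1.87 CPM and differed by 0.73 between SUS and RES mice (p = 0.00247, adjusted p = 0.999, edgeR) at a median of 12 counts. Tph2 differed by -0.23 between EE and SH mice (p = 0.0268, adjusted p = 0.208, edgeR), Maob by -0.08 between defeated and unstressed mice (p = 0.0303, adjusted p = 0.987, edgeR) and Ddc, which codes for the second enzyme of synthesis, by 0.20 between SUS and RES mice (p = 0.0373, adjusted p = 0.999, edgeR).

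Of 29 genes that act downstream of or on the receptors, all were tested and 0 were called in any comparison. For EE against SH mice, 7 had an unadjusted p below 0.05 with a higher and 4 with a lower level in EE, beside 17.6% of all genes in either direction, and the list median was 0.02 beside 0.00 for all genes. The smallest adjusted p-values were those of the adenylyl cyclase gene Adcy2 (-0.06, adjusted p = 0.0703, edgeR), of Kcnj3, a subunit of the potassium channel that Htr1a opens (-0.09, adjusted p = 0.0734, edgeR), and of Rgs4, a brake on inhibitory G proteins (0.13, adjusted p = 0.0858, edgeR). The phospholipase C gene Plcb4 differed by 0.82 between EE SUS and EE control mice (p = 0.000638, adjusted p = 0.220, edgeR), where all 8 thalamus markers were higher in EE SUS mice at an unadjusted p below 0.05. The other genes of this list with an unadjusted p below 0.05 for EE against SH had log2 values of 0.10 for Adcy3, 0.07 for Adcy5, 0.09 for Gnas, 0.09 for Rapgef3, 0.05 for Ric3 and 0.27 for Plcb4, and of -0.06 for Gnai3 and -0.04 for Gnaq. Between defeated and unstressed mice, Adcy2 differed by -0.06 (p = 0.00989, adjusted p = 0.861, edgeR) and Plcb4 by 0.29 (p = 0.0456, adjusted p = 0.987, edgeR).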

How the data were processed

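Raw counts of read pairs, 1 table for each of 55 libraries, were deposited by the authors. By their methods, low-quality reads were discarded, the rest were aligned to GRCm38 with STAR, and genes were quantified with featureCounts, although the tables look like the gene counts of STAR, in unstranded, forward and reverse columns. The reverse column was used, since the kit is stranded and 3.51% to 4.13% of strand-assigned counts lay in the forward column. Rows that name no gene, 47.1% to 54.2% of read pairs, were left out. Counts were summed over both libraries of EE control mouse 9, which gave 54 mice. Names and coordinates came from GENCODE, and 44671 of 45318 identifiers matched.

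Counts were normalized by TMM (edgeR 4.0.16, R 4.3.3), filtered with filterByExpr and tested by the quasi-likelihood test in 1 model over 6 groups, with Benjamini-Hochberg adjustment over 18283 genes. Limma 3.58.1, DESeq2 1.42.0, RLE size factors, other filters, unstranded counts, the first library of EE control mouse 9 alone, each housing alone, covariates, a replicate block and leaving out each mouse were alternatives. Leaving out the 6 mice of high choroid plexus markers and the covariates of dentate granule, CA3 and CA2, and oligodendrocyte scores were chosen after seeing the data. CPM per kb divided CPM by the union of exons. Log2 CPM used a prior count of 2. Correlations used SciPy 1.17.1, pandas 2.3.3, statsmodels 0.14.6 and NumPy 2.4.6 in Python 3.11.15, and plots matplotlib 3.10.9.

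The naming rule took all 10 receptors, their single comparisons at an unadjusted edgeR p below 0.05, pooled comparisons, the 3 most correlated genes per receptor, and pathway genes at an unadjusted p below 0.05 in a pooled comparison. Other group differences of the receptors, correlations given singly and pathway genes given by level were chosen after their values were seen. The EE SUS against EE control values of Htr1f and Plcb4 were also given outside this rule. Other pathway genes had an unadjusted p below 0.05 in a single comparison, and those values were not given. The genes, lists and tests were chosen with earlier results of these data known. Intervals of 95% rest on the spread between mice, which were treated as independent. By the study's methods, mice of each housing shared cages, and the labels name no cage. A difference between housings therefore cannot be told apart from one between cages.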

Additional observations from a re-analysis of the deposited data

Results flagged for a closer look

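The levels of the 10 receptors were examined for single outlying mice in each of the 6 groups, which made 60 sets, and 1 was found. Htr2c in SH control mouse 3 was 31.0 CPM, from 725 counts, while the next highest SH control mouse had 13.1 CPM and the lowest 4.35 CPM. The gap was 0.670 of the range of the group, above Dixon's critical value of 0.466 for 10 mice, and chance gives about 1 such mouse in 20 sets. The choroid plexus markers of this mouse summed to 1016 CPM, the highest of all mice, and its Ttr was 872 CPM. Their part in its Htr2c value was not tested. Without the 6 mice of high choroid plexus markers, SH control mice had 4.35 to 13.1 CPM of Htr2c with a mean of 8.64 ± 2.78 CPM (SD).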

How the results depend on the processing

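Under the 66 alternatives the count of receptors called was 0 in each comparison they could give, and the smallest adjusted p of a receptor was 0.0841 (edgeR, EE against SH, Htr1a, leaving out 1 mouse). The 10 differences with an unadjusted p below 0.05 kept their direction, but each lost such a p somewhere. The Htr5a interaction had a p of at least 0.05 in 10 of 11 alternatives and with 39 of 54 single mice left out. For Htr2c in SH SUS against SH RES mice this held in 5 of 12 alternatives and with 28 of 54 mice left out. It held with 7 of 54 mice left out for Htr1a in EE RES against EE control mice, and with 8 of 54 for Htr7. Among the 30 pooled differences, all with intervals that held 0 except Htr1a for EE against SH, 9 changed sign somewhere. For defeated against unstressed mice, Htr2c was 0.026 with limma-voom and 0.15 without the 6 mice of high choroid plexus markers (and -0.23, p = 0.0491, with granule, CA3 and CA2, and oligodendrocyte scores), Htr3a -0.064 with granule, CA3 and CA2, and oligodendrocyte scores, Htr4 0.012 with choroid plexus and thalamus scores, 0.0093 with the other scores and 0.0034 without the 6 mice, and Htr5b 0.074 with choroid plexus and thalamus scores and 0.016 without the 6 mice. For EE against SH, Htr5b was -0.011 with limma-voom and -0.039 without the 6 mice. For SUS against RES, Htr6 was -0.076 with choroid plexus and thalamus scores, -0.050 with the other scores, -0.0015 without a filter and -0.070 with unstranded counts, and Htr7 was -0.023 with choroid plexus and thalamus scores. With single mice left out, ranges were -0.067 to 0.013 for Htr1b, -0.11 to 0.11 for Htr2c, -0.0067 to 0.045 for Htr3a, -0.016 to 0.012 for Htr4 and -0.16 to 0.0082 for Htr5b (defeat), -0.074 to 0.085 for Htr5b and -0.091 to 0.0024 for Htr6 (housing) and -0.065 to 0.074 for Htr6 (SUS against RES). The cause of these changes was not tested. With unstranded counts, 7 of 120 mean levels moved by more than 1 SD, those of Htr6 in all 6 groups (1.25 to 1.44 CPM) and of Htr1b in EE RES mice (1.38 CPM).

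Mice with the same number in different groups had a median r of 0.026 over 126 pairs, beside -0.004 over 1086 pairs of different numbers. An r above 0.1 was reached in 32 of the 126 pairs and in 175 of the 1086. A block on the number changed the count of all genes called from 50 to 228 for EE RES against SH RES. For EE against SH it changed this count from 442 to 581. Whether the numbers mark a shared batch was not tested, and the main model does not use them. With the replicate number as a block, the count of receptors called was 0 in each comparison and Htr6 for SUS against RES was -0.019.

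Htr6, Htr5b and Htr1b had medians of 19, 28.5 and 34.5 counts per mouse, which limits what can be said of them. RES and SUS mice were classed after defeat. Marker genes of several cell types moved with the groups, and the values of Htr1a, Htr2c and Htr7 with marker scores in the model stand beside their results.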
